A study of Mus musculus with 4 samples.

Results

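Transcripts of 8 genes of regulated cell death were described in RNA sequencing libraries of cells from irradiated and unirradiated mouse mammary tumours. They are the apoptotic initiator caspases Casp8 and Casp9, the pyroptotic genes Casp1, Casp4 and Gsdmd, and the necroptotic genes Ripk1, Ripk3 and Mlkl. The genes were chosen by symbol. All 8 were found among the 54532 genes in the files, and all 8 were among the 15961 genes that passed the filter on low counts. The irradiated group held 2 libraries, A and B, with a radiation dose of 6 Gy in the series' design and a treatment label that places targeted radiation at day 6. The unirradiated group held 2 libraries, also named A and B, from mice with no radiation. All 4 libraries came from Dll1 mcherry+ tumours of MMTV-PyMT mice on the C57BL/6 strain, in which a mammary tumour virus promoter drives a viral oncogene in mammary epithelium, and all titles carry the same day. The cells are labelled primary cancer-associated fibroblasts from breast tumours (CAFs). The protocol names a PDGFRa antibody used on digested tumours, and the labels do not say which cell fraction was sequenced or whether A and B were separate animals. P-values therefore measure the spread between these libraries only, which may be technical.

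Apoptosis, pyroptosis and necroptosis are 3 programmes by which a cell takes itself apart or bursts. In apoptosis, death receptors activate caspase 8 and leaky mitochondria activate caspase 9 on the Apaf1 apoptosome, and both then cleave executioner caspases that dismantle the cell within an intact membrane. In pyroptosis, inflammasomes activate caspase 1, and bacterial lipopolysaccharide in the cytosol activates the mouse Casp4 product (caspase 11). Either protease cuts gasdermin D, whose freed end forms pores in the plasma membrane. In necroptosis, RIPK1 and RIPK3 join through shared RHIM motifs, and RIPK3 phosphorylates MLKL, which then breaches the membrane, while caspase 8 cleaves RIPK1 and RIPK3 and so holds this route in check. The activation steps above act on the proteins, so the transcript levels given here measure the supply of the components and not their activity.

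Total counts per library ranged from 13011489 to 23763830, so that 1 count was worth between 0.0403 and 0.0809 CPM (library-scaled counts, normalized by the TMM method). Against the fibroblast label, epithelial transcripts were abundant in every library. The epithelial surface gene Epcam was at 1085 and 1129 CPM in irradiated A and B, against 1221 and 1201 CPM in unirradiated A and B. The 12 epithelial markers summed to 8694 and 9038 CPM in irradiated A and B, against 9565 and 9574 CPM in unirradiated A and B, with 3 markers higher and 7 lower. The 11 tested fibroblast markers summed to 1794 and 1805 CPM in irradiated A and B, against 573 and 539 CPM in unirradiated A and B, and 9 were higher and 0 lower. The defining fibroblast gene Pdgfra stood at 23.7 ± 1.17 CPM in irradiated and 5.59 ± 0.223 CPM in unirradiated libraries (SD, n = 2 each, as for all values given with ± here). Macrophage and monocyte markers summed to 853 and 854 CPM in irradiated A and B, against 344 and 342 CPM in unirradiated A and B, with 13 of 14 higher and 0 lower. All 10 endothelial markers were higher (188 and 177 CPM in irradiated A and B, against 77.1 and 75.5 CPM in unirradiated A and B), while among T and NK cell markers 5 of 7 tested fell (4.75 and 4.68 CPM in irradiated A and B, against 11.04 and 11.65 CPM in unirradiated A and B). Of 9 tested neutrophil markers 1 was higher, Ltf, at 2105 ± 24.8 CPM in irradiated and 309 ± 8.98 CPM in unirradiated libraries. The other neutrophil markers were far below that level, and the cell type that Ltf came from was not tested. Of these others 6 were lower. Irradiated B had far less of several of them than irradiated A, as for S100a9 with 14.9 and 2.18 CPM in irradiated A and B, against 19.87 and 15.05 CPM in unirradiated A and B. In addition, all 4 tested B cell markers were lower. A bulk library cannot tell fewer cells of a type from less RNA per cell, and the part of these shifts in the changes of the cell death genes was not tested.

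The estimated changes of the 8 genes were all within 1.5-fold either way, but the 95% intervals of Casp4, Gsdmd and Ripk3 reached beyond it. In the irradiated libraries 3 of the 8 rose and 0 fell at an adjusted p under 0.05, and the remaining 5 did not pass. Over all tested genes 66.4% passed in either direction, 33.9% higher and 32.5% lower. The genes that rose were Casp4, Casp8 and Ripk1, with log2 fold changes of 0.52, 0.29 and 0.25, so each of the 3 classes held 1 gene that rose. This even split depended on the setting. With the trend along gene length and GC content taken out, 4 of the 8 were higher, Casp8 and all 3 pyroptotic genes. None of the necroptotic genes passed there. The main calls of Casp4, Casp8 and Ripk1 were each lost without some of the libraries, as given for each gene. The share of all tested genes that passed fell too when a library was left out. The median log2 fold change of the 8 genes was 0.10, and that of all tested genes was -0.00417. In absolute size 6 of the 8 changes lay below the median over all tested genes, which was 0.46, and none of the 8 estimates reached 1.5-fold. By class, the median was 0.05 for the apoptotic pair, 0.47 for the 3 pyroptotic genes and -0.06 for the 3 necroptotic genes, and differences between classes were not tested. The pyroptotic median is the estimate of Gsdmd, which did not pass in the main test and moved with the library left out, as given for that gene.

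**Figure D1:**
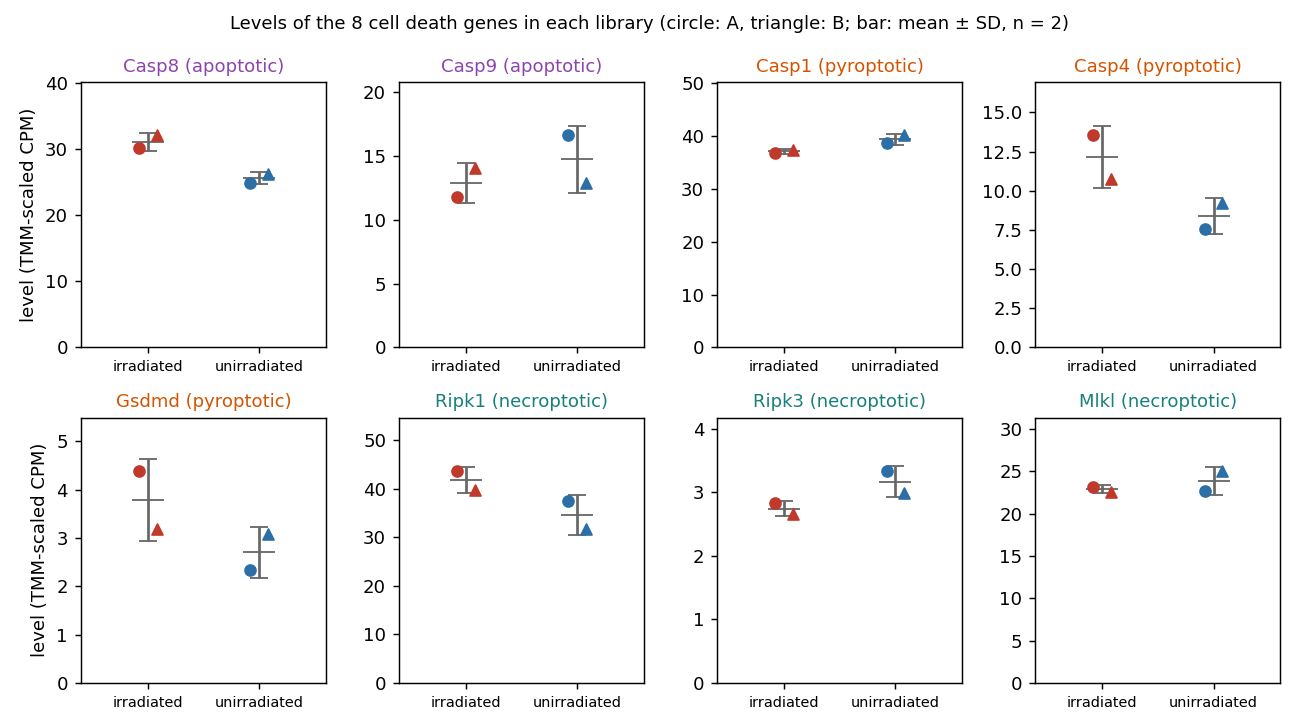
Level of each of the 8 genes (y axis, TMM-scaled CPM, each panel starting at 0) in the irradiated libraries (red, left) and the unirradiated libraries (blue, right). Circles are library A and triangles library B, and bars give the mean and SD of the 2 libraries. The groups stand apart upward for Casp8, Casp4, Gsdmd and Ripk1, apart downward for Casp1 and Ripk3, and overlap for Casp9 and Mlkl.

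The initiators of apoptosis were described first. Casp8 encodes caspase 8, the protease that death receptors activate (chromosome 1, 58795374 to 58847503, mm10). Its level was 30.1 and 32.1 CPM in irradiated A and B, against 24.9 and 26.2 CPM in unirradiated A and B. Both irradiated libraries lay above both unirradiated ones, with the gap wider than the spread within either group. The log2 fold change was 0.29 (SE 0.0912, edgeR adjusted p = 0.00403, from the quasi-likelihood test adjusted over all tested genes), a fold of 1.22 with a 95% interval of 1.08 to 1.39. It missed the threshold without irradiated B (0.24), without unirradiated A (0.25) and with DESeq2 (adjusted p = 0.0541). Alternatives that kept all 4 libraries and tested for any change gave adjusted p from 5.10e-04 (edgeR) to 0.0541 (DESeq2).

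Casp9 encodes caspase 9, the protease of the mitochondrial route (chromosome 4, 141793612 to 141815976). It stood at 11.8 and 14.0 CPM in irradiated A and B, against 16.6 and 12.9 CPM in unirradiated A and B. The groups overlapped, since unirradiated B lay below irradiated B. The log2 fold change of -0.19 (SE 0.131, edgeR adjusted p = 0.186) did not pass, and its interval ran from a fold of 0.729 to 1.05. Without unirradiated B it was -0.34 and passed (edgeR adjusted p = 0.0367), and without unirradiated A it was 0.02. Over the alternatives with all 4 libraries and a test for any change, its edgeR adjusted p ranged from 0.0944 to 0.489. Antisense genes Cela2a and Ctrc each overlap 1.81% of its exon bases, and reads there cannot be told apart without strand.

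Within each library Casp8 exceeded Casp9 per base of the deposited gene length. The ratios were 4.59 and 4.12 in irradiated A and B, against 2.701 and 3.661 in unirradiated A and B. The ratio was thus higher in both irradiated libraries, and with 2 libraries a group no exact test of it can go below p = 0.333.

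Among the pyroptotic genes, Casp1 and Casp4 are neighbours on the same strand of chromosome 9, where Casp1 spans 5298517 to 5307265 and Casp4 spans 5308828 to 5336783. Casp1, the protease that matures interleukin 1 beta, was at 36.8 and 37.4 CPM in irradiated A and B, against 38.6 and 40.1 CPM in unirradiated A and B. The irradiated libraries lay slightly below the unirradiated ones. The log2 fold change was -0.08 (SE 0.0793, edgeR adjusted p = 0.376), and the interval of 0.848 to 1.06 in fold holds no change of 1.5-fold either way. With a trend of the changes along gene length and GC content taken out, the estimate turned to 0.21 and passed (edgeR adjusted p = 0.0155). It passed under no other alternative.

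Casp4, which encodes the lipopolysaccharide-activated caspase of the non-canonical inflammasome, was at 13.5 and 10.7 CPM in irradiated A and B, against 7.58 and 9.22 CPM in unirradiated A and B. The groups did not overlap, but irradiated B and unirradiated B lay closer to each other than the libraries within either group did. Its log2 fold change was 0.52 (SE 0.155, edgeR adjusted p = 0.00262), a fold of 1.44 with an interval of 1.16 to 1.78. Without irradiated A or without unirradiated A the estimate was 0.37 and no longer passed (edgeR adjusted p = 0.0876 and 0.0967). Where all 4 libraries were kept and any change was tested, its adjusted p ranged from 0.00103 (edgeR) to 0.0375 (DESeq2).

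The ratio of Casp4 to Casp1 per length was 0.148 and 0.116 in irradiated A and B, against 0.0792 and 0.0927 in unirradiated A and B. It was not corrected for the length and GC trend, which was 0.049 for Casp4 and -0.295 for Casp1 on the log2 scale. The 250 bases before the transcript starts of this adjacent pair are shown because 1 of the pair passed and the other did not. They are in lower case because none of the motifs searched below matched in them.
Casp1, chr9:5298267-5298516, plus strand: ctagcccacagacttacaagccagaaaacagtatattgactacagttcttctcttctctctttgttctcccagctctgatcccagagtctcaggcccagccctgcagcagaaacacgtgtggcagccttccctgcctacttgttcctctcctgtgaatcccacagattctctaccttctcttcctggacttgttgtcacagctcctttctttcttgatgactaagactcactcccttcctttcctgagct
Casp4, chr9:5308599-5308848, plus strand: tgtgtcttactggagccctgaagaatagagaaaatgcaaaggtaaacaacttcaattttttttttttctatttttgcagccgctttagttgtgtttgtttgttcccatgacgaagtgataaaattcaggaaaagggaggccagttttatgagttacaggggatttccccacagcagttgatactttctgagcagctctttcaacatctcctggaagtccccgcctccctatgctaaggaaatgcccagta
Both are from RefSeq on GRCm38.p6, as are all sequences given here, and the last bases of the Casp4 run lie inside the annotated span of the gene.

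Gsdmd encodes gasdermin D, the pore former (chromosome 15, 75862327 to 75867408). It was at 4.39 and 3.19 CPM in irradiated A and B, against 2.33 and 3.07 CPM in unirradiated A and B. These levels rest on 73 and 79 counts in irradiated A and B and on 39 and 38 counts in unirradiated A and B. The groups did not overlap, yet irradiated B and unirradiated B were nearly level. The log2 fold change of 0.47 (SE 0.269, edgeR adjusted p = 0.115) did not pass, and its interval of 0.956 to 2.02 in fold was wide. The estimate was 0.27 without irradiated A, 0.26 without unirradiated A, 0.73 without irradiated B and 0.66 without unirradiated B, and none of these passed. Of the alternatives tried, it passed only with the length and GC trend taken out (0.68, edgeR adjusted p = 0.0233). With DESeq2 the adjusted p was 0.293.

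Of the necroptotic genes, Ripk1 alone passed. Ripk1 encodes the kinase and scaffold that sits between tumour necrosis factor receptor signalling and cell death (chromosome 13, 34002363 to 34037147). It was at 43.7 and 39.8 CPM in irradiated A and B, against 37.4 and 31.7 CPM in unirradiated A and B. The groups did not overlap, although irradiated B and unirradiated A were closer than the libraries within either group. The log2 fold change was 0.25 (SE 0.0830, edgeR adjusted p = 0.00658), a fold of 1.19 with an interval of 1.06 to 1.34. It was 0.03 with the length and GC trend taken out (edgeR adjusted p = 0.742), and 0.19 without irradiated A and 0.15 without unirradiated B, where it did not pass either (edgeR adjusted p = 0.0841 and 0.165). With DESeq2 the adjusted p was 0.0553. Among alternatives with all 4 libraries and a test for any change, its edgeR adjusted p ranged from 0.00201 to 0.742. Of the Ripk1 exon bases in GENCODE release M21, 2.89% overlap the antisense gene Serpinb6a and 6.12% a processed pseudogene. The pseudogene lies on the same strand as Ripk1, and the library kit does not mark strand for the antisense overlap, so reads in either stretch cannot be assigned with certainty. Serpinb6a itself had a log2 fold change of 0.02.

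Ripk3, the kinase that activates MLKL, was the least abundant of the 8 genes per length in irradiated libraries (chromosome 14, 55784995 to 55788865). It was at 2.83 and 2.66 CPM in irradiated A and B, from 47 and 66 counts, against 3.34 and 2.99 CPM in unirradiated A and B, from 56 and 37 counts. The irradiated libraries lay below the unirradiated ones. The log2 fold change of -0.23 (SE 0.268, edgeR adjusted p = 0.464) did not pass, and the interval of 0.590 to 1.24 in fold was wide at this depth.

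Mlkl, the effector that breaches the membrane, was at 23.2 and 22.6 CPM in irradiated A and B, against 22.7 and 25.1 CPM in unirradiated A and B (chromosome 8, 111311797 to 111338177). The groups overlapped. The log2 fold change was -0.06 (SE 0.0993, edgeR adjusted p = 0.633), and the fold lay between 0.839 and 1.10.

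**Figure D2:**
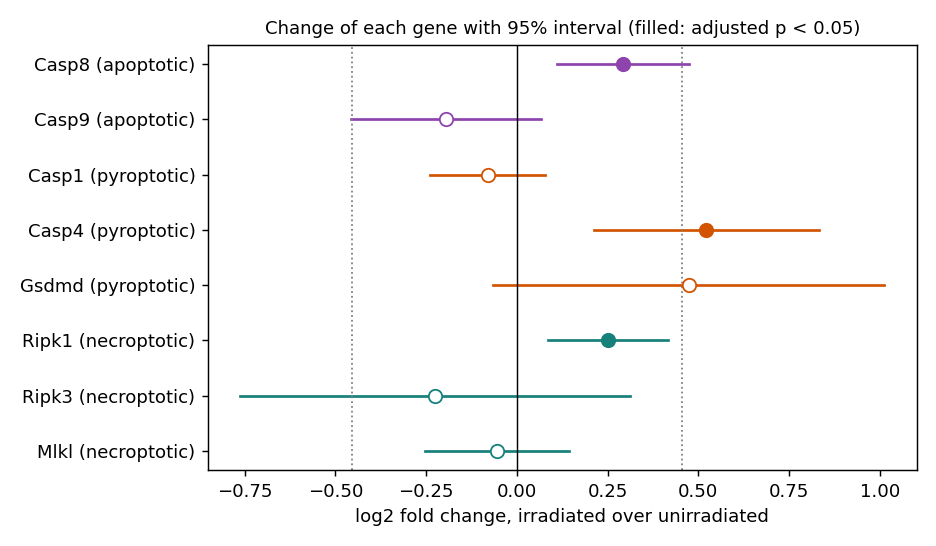
Log2 fold change of each of the 8 genes, irradiated over unirradiated (x axis), with its 95% interval, coloured by class and filled where the adjusted p was under 0.05. Dotted lines mark the median absolute change of all tested genes, 0.46. The intervals of Casp8, Casp4 and Ripk1 lie above 0, while those of Gsdmd and Ripk3, the genes with the fewest counts, are the widest.

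Of the 8 intervals, 5 lay wholly inside a 1.5-fold change in either direction, those of Casp8, Casp9, Casp1, Ripk1 and Mlkl. The intervals are unadjusted and use a spread pooled across genes. Groups without overlap upward were found for 4 of the 8 genes and downward for 2, where 82.5% of all tested genes had groups that did not overlap, 41.5% higher and 40.9% lower.

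Casp8 is shown with Ripk1 for what lies before their starts, as the other genes that rose. The Casp8 run precedes an internal start of the gene, and the Ripk1 run spans its second start. In the Ripk1 run the capitals mark a GAS motif (TTCNNNGAA) and an ISRE core (GAAA, any 2 bases, GAAA), the elements bound by interferon-activated STAT and IRF factors, which overlap each other there.
Casp8, chr1:58802252-58802501, plus strand: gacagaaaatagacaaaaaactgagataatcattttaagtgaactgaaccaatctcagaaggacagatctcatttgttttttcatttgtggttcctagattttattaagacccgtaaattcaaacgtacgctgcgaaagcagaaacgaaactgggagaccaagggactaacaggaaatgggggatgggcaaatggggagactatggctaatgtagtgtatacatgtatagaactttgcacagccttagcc
Ripk1, chr13:34002849-34002878, plus strand: cgggacttcaaacgTTCCCGGAAATCGAAA
Promoter windows of 300 bases (250 before and 50 after a start) were held for 7 of the 8 genes, 9 windows in all, and both strands were searched. The ISRE core was found in 1 of the 9 and in 3.44% of all 32851 windows, and the GAS motif in 1 of the 9 and in 8.30% of all windows. The p53 decamer was found in 0 of the 9 and in 8.36% of all windows. The second Ripk1 window was the one with both matches, and it held a further GAS match. A match describes letters and not binding, and a window without a match says nothing of more distant elements.

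Levels were then compared between genes per kilobase of the deposited gene length. For each of these genes that length equals all merged exon bases in GENCODE M21 and is not a transcript length. The order of the genes therefore depends in part on the annotation. In both groups Casp1 was the most abundant, at 24.8 ± 0.302 CPM per kb in irradiated and 26.3 ± 0.724 CPM per kb in unirradiated libraries. Casp8 and Mlkl came next. Casp8 was at 10.8 ± 0.476 and Mlkl at 9.94 ± 0.202 CPM per kb in irradiated libraries, while in unirradiated libraries they were at 8.84 ± 0.312 and 10.4 ± 0.741 CPM per kb. Ripk1 followed at 5.00 ± 0.329 CPM per kb in irradiated and 4.14 ± 0.482 CPM per kb in unirradiated libraries.

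The initiator of the mitochondrial route and the rarer pyroptotic genes were lower. Casp4 was at 3.27 ± 0.533 CPM per kb in irradiated and 2.26 ± 0.314 CPM per kb in unirradiated libraries, and Casp9 at 2.48 ± 0.301 CPM per kb in irradiated and 2.83 ± 0.506 CPM per kb in unirradiated libraries. Gsdmd was at 1.59 ± 0.358 CPM per kb in irradiated and 1.14 ± 0.222 CPM per kb in unirradiated libraries, and Ripk3 at 1.20 ± 0.0504 CPM per kb in irradiated and 1.38 ± 0.107 CPM per kb in unirradiated libraries. Casp8 and Mlkl, Casp4 and Casp9, and Gsdmd and Ripk3 were thus neighbours in the order, and the first of each pair was ahead in irradiated libraries and behind in unirradiated ones. Of these 3 pairs only Casp4 and Casp9 overlapped, in unirradiated libraries, and the change of order was not tested.

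The balance within the necroptotic genes was read from ratios per length in each library. Ripk3 over Ripk1 was 0.236 and 0.244 in irradiated A and B, against 0.325 and 0.344 in unirradiated A and B, so the ratio was lower in both irradiated libraries. Mlkl over Ripk3 was 8.17 and 8.43 in irradiated A and B, against 6.75 and 8.34 in unirradiated A and B. Casp8, which restrains the RIPK kinases, exceeded Ripk3 by ratios of 8.45 and 9.54 in irradiated A and B, against 5.91 and 6.94 in unirradiated A and B. Mlkl over Gsdmd, the 2 membrane effectors, was 5.46 and 7.30 in irradiated A and B, against 10.1 and 8.42 in unirradiated A and B. Ratios with Ripk3 or Gsdmd carry the counting error of those scarce transcripts. None of these ratios was corrected for the trend of the changes along gene length and GC content. On the log2 scale, irradiated over unirradiated, that trend was -0.22 for Ripk3 and 0.22 for Ripk1. The lower ratio of Ripk3 to Ripk1 therefore depends on leaving the trend in.

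**Figure D3:**
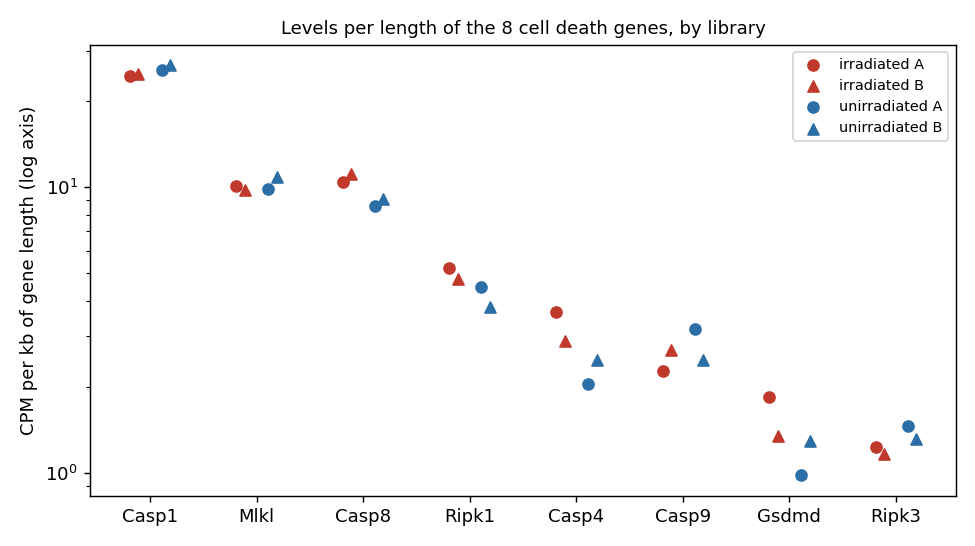
Level of each of the 8 genes per kilobase of gene length (y axis, CPM per kb, log axis) in the irradiated libraries (red, left of each pair) and the unirradiated libraries (blue), circles for A and triangles for B. Genes run from the highest mean level, Casp1, to the lowest, Ripk3, and the span within the set is far wider than any shift between the groups.

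Genes whose profile over the 4 libraries was closest to each of the 8, by Euclidean distance between centred log2 CPM values, were mostly of other pathways. For Casp8 they were Sqle and Stx1a (distances 0.0116 and 0.0135), for Casp1 Phb2 and Sgta, for Casp4 Dna2 and Cand2, and for Ripk1 Insr and Timm8a1. For Casp9 they were Ten1 and H1fx, for Ripk3 Kansl1l and Mrps36, and for Mlkl Hap1 and Fubp1. The nearest to Gsdmd was Casp4 (0.129), another of the 8. With 4 points, 2 from each group, a small distance mainly says that the group difference is of like size.

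Partner genes of the 3 routes were described from lists. Of 75 tested genes on 10 lists of partners and regulators, 24 rose, 20 fell and 31 did not pass, and their median change was -0.00971 on the log2 scale. Over all tested genes 33.9% were higher and 32.5% lower, and the count of each list below stands against these shares. The 8 genes are on none of the lists.

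Among the other caspases 2 of 5 tested genes were higher and 1 lower (median 0.06). Without any 1 of the 4 libraries, and with DESeq2, 1 of the 5 was higher. Casp6, an effector caspase, fell to 25.0 ± 0.712 CPM in irradiated libraries, against 43.7 ± 2.25 CPM in unirradiated ones (-0.82). Casp12, a caspase of the endoplasmic reticulum, did not pass (0.06).

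Of the apoptosome and mitochondrial release genes 1 of 6 was higher and 1 lower (median -0.13). Apaf1, which assembles the platform for caspase 9, rose to 30.2 ± 0.120 CPM in irradiated libraries, against 17.1 ± 0.234 CPM in unirradiated ones (0.82), while Casp9 itself did not pass. Htra2, a mitochondrial serine protease, fell to 33.8 ± 0.0811 CPM in irradiated libraries, against 65.8 ± 1.10 CPM in unirradiated ones (-0.96). Of the 8 tested inhibitor of apoptosis genes 2 were higher and 2 lower (median -0.18). The caspase inhibitor Xiap (0.56) and Birc3 (0.62), a ubiquitin ligase for RIPK1, rose, and Naip2, an inflammasome sensor for bacterial proteins, and Birc5, a mitotic survival protein, fell (-1.17 and -0.20). Without irradiated A or without unirradiated A, 1 of the 8 was lower.

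Around caspase 8, the death receptor list had 2 of 9 tested genes higher and 1 lower (median 0.20). Tnfrsf10b, the mouse TRAIL death receptor, rose to 41.9 ± 0.238 CPM in irradiated libraries, against 19.6 ± 0.431 CPM in unirradiated ones (1.10). Tnf, the cytokine whose receptor recruits RIPK1, rose to 127 ± 6.93 CPM in irradiated libraries, against 65.2 ± 1.98 CPM in unirradiated ones (0.96). Its adaptor Tradd fell (-0.31, and -0.03 without a pass once the length and GC trend was taken out). The adaptor Fadd (0.21) and the caspase 8 inhibitor Cflar (0.14) did not pass, and Cflar turned to -0.15 and passed with the length and GC trend taken out.

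The inflammasome genes that feed caspase 1 moved in opposite directions. Pycard, the ASC adaptor that links sensors to caspase 1, was at 8.36 and 7.42 CPM in irradiated A and B, against 24.9 and 27.8 CPM in unirradiated A and B, and fell (log2 fold change -1.74, SE 0.123, edgeR adjusted p = 9.05e-20). The sensor Nlrp3 was at 12.9 and 12.3 CPM in irradiated A and B, against 5.31 and 3.96 CPM in unirradiated A and B, and rose (1.41, SE 0.173), as did Nek7, a kinase that NLRP3 needs (0.84). Of 8 tested sensors and adaptors these were the 2 higher and the 1 lower (median 0.16), and 2 were lower without unirradiated B.

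Cytokines of the interleukin 1 family also rose. Il1b rose to 25.6 ± 1.02 CPM in irradiated libraries, against 9.16 ± 1.57 CPM in unirradiated ones (1.501), and Il1a rose to 7.52 ± 0.261 CPM in irradiated libraries, against 1.64 ± 0.204 CPM in unirradiated ones (2.22). Of 5 cytokine genes 3 were higher and 1 lower (median 0.84), with the receptor antagonist Il1rn the other that rose (0.84). Il18 did not pass (-0.11), and its binding protein Il18bp fell (-0.48), a call lost without unirradiated A, where 0 were lower. Ninj1, which ruptures the membrane after gasdermin pores form, rose (0.48) and Gsdme did not pass (-0.08), the only 2 of 10 genes on that list with enough counts. Macrophage and monocyte markers were higher in these irradiated libraries, 13 of 14 (853 and 854 CPM in irradiated A and B, against 344 and 342 CPM in unirradiated A and B). The part of such cells in the rise of Nlrp3 and Il1b, or in the fall of Pycard, was not tested.

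Guanylate-binding proteins and immunity-related GTPases, listed for the caspase 11 pathway, had 1 of 6 tested genes higher and 3 lower (median -0.31), while Casp4 rose. Gbp3 fell to 48.7 ± 0.646 CPM in irradiated libraries, against 102 ± 2.18 CPM in unirradiated ones (-1.07), and Gbp2 and Irgm1 fell by 0.53 and 0.51 on the log2 scale. Gbp5 rose (0.65, edgeR adjusted p = 0.0365) from few counts, a call lost in 9 of the 14 alternatives, among them each omission of 1 library.

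Inputs to necroptosis and regulators of RIPK1, the longest list, had 10 of 18 genes higher and 4 lower (median 0.19). Tlr4, which can start necroptosis through Ticam1, rose to 22.6 ± 0.0690 CPM in irradiated libraries, against 11.2 ± 0.177 CPM in unirradiated ones (1.01). Tnfaip3, the A20 enzyme that restrains RIPK1 and RIPK3, rose to 594 ± 0.225 CPM in irradiated libraries, against 370 ± 12.3 CPM in unirradiated ones (0.68). Zbp1, the nucleic acid sensor that engages RIPK3 directly, fell to 41.2 ± 0.298 CPM in irradiated libraries, against 60.04 ± 2.41 CPM in unirradiated ones (-0.55).

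Interferon transcription factors had 0 of 8 higher and 6 lower (median -0.40). Irf7 fell to 112 ± 2.31 CPM in irradiated libraries, against 258 ± 0.846 CPM in unirradiated ones (-1.20), and Stat2 fell to 59.6 ± 2.82 CPM in irradiated libraries, against 132 ± 2.90 CPM in unirradiated ones (-1.16). Irf3, Irf9 and Irf1 also fell (-0.67, -0.39 and -0.19), and Irf2 (-0.02) and Irf8 (-0.10) did not pass. Casp1, Casp4, Mlkl and Zbp1 are known as interferon-inducible genes, and of these Zbp1 fell, Casp4 rose, and Casp1 and Mlkl did not pass.

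**Figure D4:**
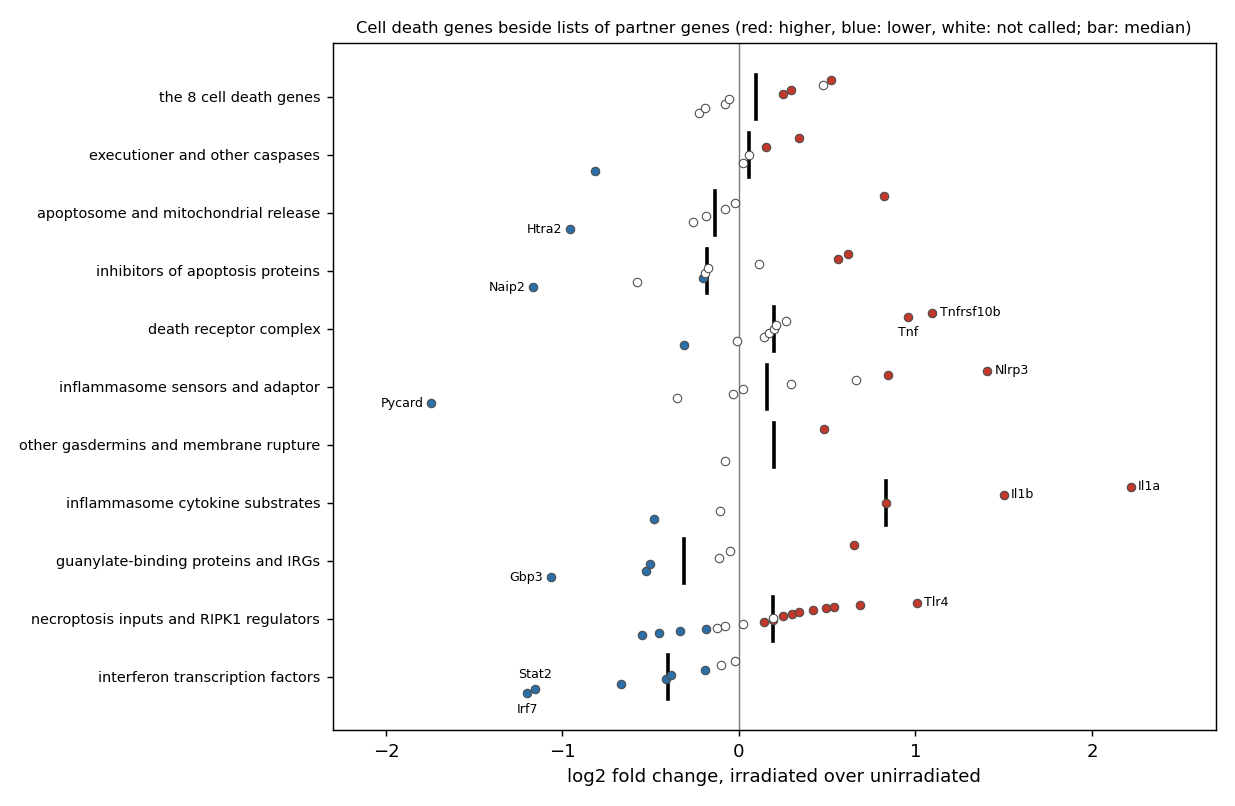
Log2 fold change, irradiated over unirradiated (x axis), of each tested gene on 10 lists of partner genes and of the 8 cell death genes (top row). Red points were higher, blue points lower and white points did not pass, black bars are medians, and genes beyond 0.9 either way are named. The 8 genes stay between -0.23 and 0.52, while Pycard lies at -1.74 and Il1a at 2.22.

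The direction of Casp4, Casp8 and Ripk1 was upward under all alternatives that gave an estimate of their own, but their calls rested on small differences. Casp4 was the only gene of the 3 that passed with DESeq2, and Casp8 the only one that passed without irradiated A.

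**Figure D5:**
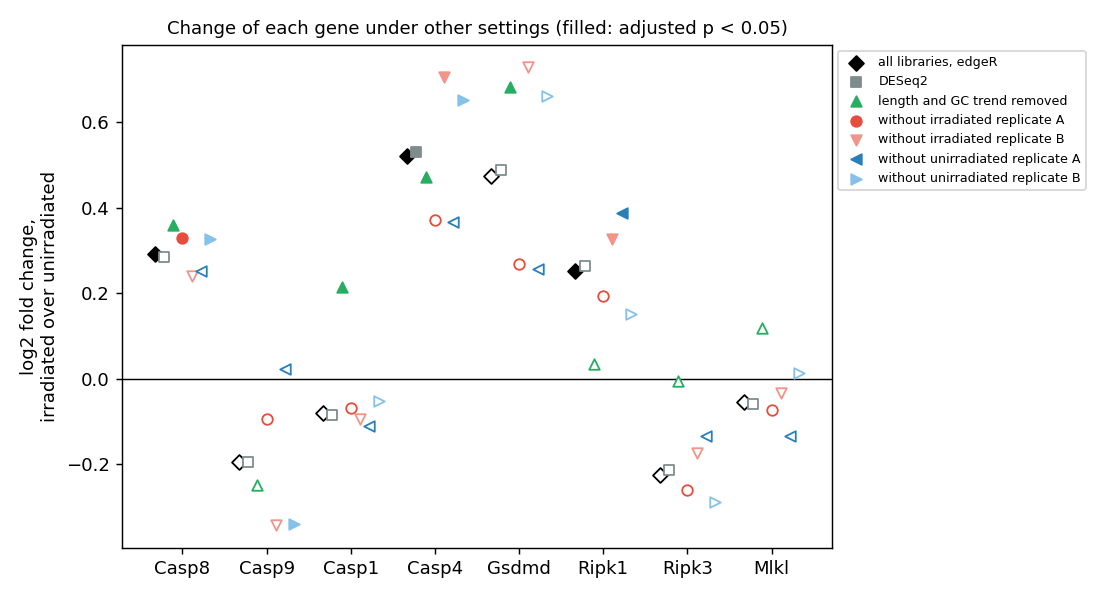
Log2 fold change of each of the 8 genes, irradiated over unirradiated (y axis), for all libraries with edgeR (black diamonds), with DESeq2, with the length and GC trend taken out, and without each library in turn. Symbols are filled where the adjusted p was under 0.05. Casp8, Casp4 and Ripk1 stay above 0 in each of these settings but lose the filled symbol in some, and Casp1 turns upward after the trend is removed.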

How the data were processed

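Counts per gene were read for 4 libraries, 2 irradiated and 2 unirradiated, grouped by the treatment labels. The authors deposited raw whole-number counts, beside gene coordinates and a length in bases (other values), as the headers name them. STAR 2.5, HTSeq 0.6.1, DESeq2 and mm10 are named in the submitters' processing notes. Their settings and the annotation release were not given in the sources used here. RNA was poly(A) selected and the library kit was not strand-specific, per the labels' protocols. Of 54532 gene identifiers 54495 occur in GENCODE M21, 98.3% of them with identical coordinates.

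Counts were tested with edgeR 4.0.16 in R 4.3.3, using filterByExpr, TMM and the quasi-likelihood F-test with its newer, non-legacy dispersion. P-values were adjusted by Benjamini-Hochberg over 15961 genes, and a pass is an adjusted p under 0.05. The test had 2 residual and 59.8 prior degrees of freedom. Each standard error divides the size of the log2 change by the root of its F value, and 95% intervals use the pooled degrees of freedom without adjustment. Levels per length divide CPM by the deposited length. Libraries of a group differed from each other by 2.11 and 2.14 times the chi-square that counting gives (genes with at least 20 counts), against 28.1 to 30.5 times between groups, so all 4 were kept. No label says that the letters A and B pair libraries. The correlation of A minus B between the groups was 0.0106, which cannot show whether they were paired.

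Each result was recomputed with other scalings (RLE, upper quartile), with DESeq2 1.42.0, without the low-count filter or with a stricter filter (1 CPM in 2 libraries) and with the letter as a replicate block. Further alternatives omitted each library in turn (a lone library is assumed to vary like the others), took out a loess trend along gene length and GC content (99.9% of tested genes had a GC value), lowered the threshold to 0.01 or tested against 1.5-fold. edgeR's legacy dispersion was added after seeing the data. The test was checked on simulated data. Partner genes named are, per list, up to 3 that passed, taken by size of change among those averaging 1 CPM or more, and 11 picked by name, some of which are not reported here. Birc5, Il18, Il18bp, Gsdme, Irgm1, Irf8, Irf9, Serpinb6a, Ltf, S100a9 and the genes with too few counts were named after their values were seen. Closest profiles were sought among named genes averaging 5 CPM or more. The 8 genes and all lists were chosen with earlier results of these data known.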

Additional observations from a re-analysis of the deposited data

How the results depend on the processing

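With the length and GC trend taken out, Casp1 turned upward and passed (0.21), Gsdmd passed (0.68), Ripk1 did not (0.034), and Cflar turned downward and passed (-0.15). Of the 8 genes 4 were then higher, Casp8 and all 3 pyroptotic genes. With DESeq2, Casp8 (0.28) and Ripk1 (0.26) no longer passed, which left 1 of the 8 higher, Casp4. Over all tested genes 53.5% passed with DESeq2, against 66.4% in the main test. Against 1.5-fold 0 of the 8 passed (Casp8 0.29, Casp4 0.52, Ripk1 0.25), and of all tested genes 2033 were higher and 1753 lower. Ripk3 and Mlkl did not pass under any of the 14 alternatives. Leaving out each library gave log2 fold changes of 0.24 to 0.33 for Casp8, -0.34 to 0.024 for Casp9 and 0.37 to 0.71 for Casp4. The range was 0.26 to 0.73 for Gsdmd and 0.15 to 0.39 for Ripk1. The replicate block, although no label pairs A and B, left 3 of the 8 higher and moved Cflar to 0.15, which then passed.

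Of the partner lists, other caspases had 1 higher with upper-quartile scaling, DESeq2, the stricter filter or a threshold of 0.01, 0 against 1.5-fold and 1 without any 1 library. Apoptosis inhibitors had 1 lower with DESeq2, at 0.01 or against 1.5-fold, 5 with the trend taken out and 1 to 3 without a library, and 0 higher against 1.5-fold. Death receptor genes had 4 higher without a filter or with the trend taken out, and 0 lower against 1.5-fold. Inflammasome sensors had 2 lower without a filter and 1 to 2 without a library, gasdermins 3 higher without a filter and 0 against 1.5-fold, and cytokines 0 lower against 1.5-fold and 0 to 1 without a library. Guanylate-binding proteins and GTPases had 0 higher with upper-quartile scaling, DESeq2, the trend taken out, 0.01, 1.5-fold or any 1 library left out, and 1 lower against 1.5-fold. Against 1.5-fold necroptosis inputs had 2 higher and 0 lower, and interferon factors 2 lower. Other list counts stayed within 1.5 times (242, against 38 that did not). The causes were not tested. Depth limits Ripk3 (113 counts in irradiated and 93 in unirradiated libraries) and Gsdmd (152 in irradiated and 77 in unirradiated libraries).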

Other observations

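Of 88 partner genes found in the files 13 had too few counts to be tested, among them most gasdermins. Gsdma3 had 7 and 24 counts in irradiated A and B, against 0 and 1 in unirradiated A and B, and Gsdma2 had 2 and 13 counts in irradiated A and B, against 0 and 0 in unirradiated A and B. These are near-identical copies, so reads may not be assigned to 1 of them with certainty, and irradiated B, the deepest library, holds most of the counts. Nlrp6, an inflammasome sensor of epithelium, had 1 and 3 counts in irradiated A and B, against 14 and 6 in unirradiated A and B, and Naip1 had 0 and 0 in irradiated A and B, against 3 and 9 in unirradiated A and B. With no filter on low counts these 4 passed edgeR's test, with adjusted p of 6.43e-04 for Gsdma3, 0.0106 for Gsdma2, 0.00643 for Nlrp6 and 0.00416 for Naip1. The other 9 did not. Fasl, the death ligand of cytotoxic lymphocytes, had 3 and 8 counts in irradiated A and B, against 3 and 4 in unirradiated A and B, and Casp14, a caspase of the epidermis, had 1 and 3 in irradiated A and B, against 0 and 1 in unirradiated A and B.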
